A study of Mus musculus with 12 samples.

Results

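Lss, Cyp51, Tm7sf2, Msmo1, Nsdhl, Hsd17b7, Ebp, Sc5d and Dhcr7 encode the enzymes that lead from squalene epoxide through lanosterol to cholesterol. These 9 genes were chosen by name from the known order of the pathway and matched by Ensembl gene ID, out of 37583 gene IDs in the count files. All 9 were among the 11819 genes that passed the filter on low counts. The lowest count of any of them in any clone was 129, for Tm7sf2.

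They were measured by RNA sequencing in 12 clones of granulocyte-monocyte progenitors (GMPs), the bone marrow and fetal liver cells that give rise to neutrophils and monocytes. The knockout clones (3G, 3H, 3I; 4J, 4K, 4L) carried a knockout of Taz, the X-linked gene for Tafazzin, an enzyme that remodels the mitochondrial phospholipid cardiolipin. The wildtype clones were 1A, 1B, 1C, 2D, 2E and 2F. Both genotypes came from C57BL/6 fetal liver at embryonic day 15.5 and carried retroviral ER-Hoxb8, an estradiol-dependent fusion protein that blocks maturation. All 12 clones were grown with stem cell factor, at a strength equal to about 50 ng/ml, and 0.5 µM estradiol. Each clone was grown from a single cell, so it is a model of an immortalized line and not of progenitors in the animal. How the Taz allele was made is not given in the sources used here. Titles carry a number before the clone letter, 3 or 4 in knockout and 1 or 2 in wildtype, with 3 clones each. The labels do not say whether clones of 1 number share an embryo or a parent culture, and p-values over clones would be too small if they do.

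Taz had 2.21 to 4.08 CPM (counts scaled to library size by TMM) in knockout clones and 37.1 to 43.9 CPM in wildtype clones, so every clone matched its label. Counts in genes averaged 21197723 in knockout clones and 24969227 in wildtype clones, with extremes of 18970252 and 27431544. All 10 GMP markers, among them Mpo, Elane and Kit, had at least 4 counts in every clone. Clones 3G and 2D stood apart. Hepatocyte markers summed to 184 CPM in 3G, against 8.39 to 23.96 CPM in the other knockout clones and 3.54 to 17.5 CPM in wildtype clones, and Ttr and Fgb had 0 counts in every clone but 3G. Neutrophil markers summed to 5.20 to 84.1 CPM in knockout clones, and to 1411 CPM in wildtype 2D against at most 99.5 CPM in the other wildtype clones. Erythroid markers summed to 780 to 1087 CPM in knockout clones and 516 to 883 CPM in wildtype clones. Most of this sum was Tfrc, with 752 to 1071 CPM in knockout clones and 500 to 855 CPM in wildtype clones. Macrophage markers summed to 28.9 to 62.4 CPM in knockout clones and 17.2 to 55.1 CPM in wildtype clones. Stromal markers summed to 373 to 597 CPM and 221 to 637 CPM in knockout and wildtype clones. Most of the stromal sum was Pecam1, with 281 to 491 CPM in knockout clones and 158 to 503 CPM in wildtype clones. In every clone but 3G, 5 of 7 macrophage and 3 of 6 stromal markers had at most 3 counts. In 3G, C1qb had 2.21 CPM and Col3a1 3.73 CPM, while Dcn had 0 counts in every clone. The part of these counts in the results was not tested beyond leaving both clones out, and calls of named genes that changed are given beside them.

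Cholesterol synthesis first builds squalene from acetyl-CoA through mevalonate. Squalene epoxide is then closed into the ringed sterol lanosterol, and the enzymes described here strip methyl groups from lanosterol and move or reduce its double bonds. Most genes of both stretches are known targets of SREBP2, a membrane-bound transcription factor released when sterol in the endoplasmic reticulum runs low. Dividing cells draw on the pathway for new membrane.

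Transcripts of 8 of the 9 genes were lower in Taz knockout clones than in wildtype clones, and none was higher. Mean levels were lower by 12.3% for Ebp, the smallest difference, and by 38.1% for Lss, the largest. Tm7sf2 had a mean 34.3% lower but overlapped between genotypes and did not pass the test. By edgeR's quasi-likelihood test with Benjamini-Hochberg adjustment over all genes, 8 of 9 fell at an adjusted p under 0.05, against 3.94% of all genes tested that fell and 3.99% that rose. All 9 had an unadjusted p under 0.05, as did 23.7% of all genes tested. The median log2 fold change of the 9 was -0.55, against -0.01 over all genes tested, where the median size of a change in either direction was 0.11. For 8 of 9 genes every knockout clone lay below every wildtype clone, a separation found in 2.84% of all genes tested; the opposite one was found in 2.54%. RNA was taken from whole cultures, so fewer cells with a transcript and less of it per cell cannot be told apart.

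**Figure D1:**
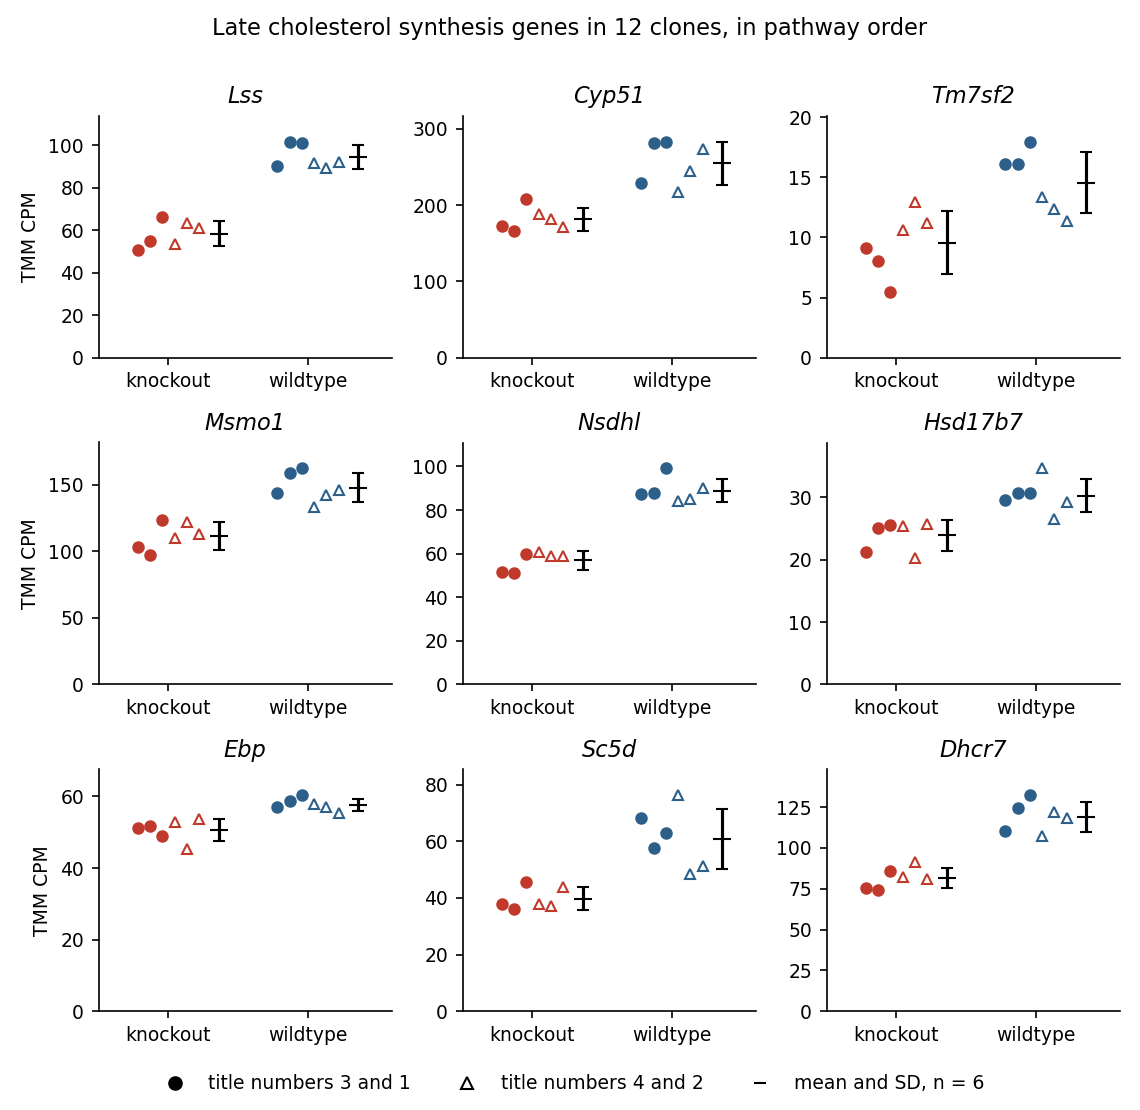
TMM-scaled CPM of each gene in every clone, knockout left of wildtype, on axes that start at 0; circles are title numbers 3 and 1, triangles 4 and 2, and bars show mean and SD (n = 6). The groups overlap in Tm7sf2 alone, where knockout clone 4K had 12.98 CPM and wildtype clone 2F 11.4 CPM.

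Because these genes fell together, the stretch of 200 bases before the transcription start is shown for the members with the largest and smallest fall, Lss and Ebp, and for the 4 members that hold an SREBP-type motif. The sequences are from RefSeq on GRCm38.p6, written 5′ to 3′ along the gene. Capitals mark CCAAT (read as ATTGG on the other strand), the motif bound by NF-Y. They also mark GGGCGG (read as CCGCCC), the GC box bound by Sp1. The third motif marked is TCACNTCA, a looser form of the sterol regulatory element chosen after these promoters had been read. Dhcr7 has 3 annotated start sites and start site 3 is shown, since of the 3 it alone holds all 3 motifs.
Lss promoter, chr10:76531405-76531604, plus strand: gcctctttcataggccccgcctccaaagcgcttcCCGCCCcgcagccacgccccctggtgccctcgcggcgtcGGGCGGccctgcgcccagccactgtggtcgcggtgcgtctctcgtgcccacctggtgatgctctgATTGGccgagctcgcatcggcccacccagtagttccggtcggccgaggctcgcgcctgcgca
Cyp51 promoter, chr5:4104698-4104897, minus strand: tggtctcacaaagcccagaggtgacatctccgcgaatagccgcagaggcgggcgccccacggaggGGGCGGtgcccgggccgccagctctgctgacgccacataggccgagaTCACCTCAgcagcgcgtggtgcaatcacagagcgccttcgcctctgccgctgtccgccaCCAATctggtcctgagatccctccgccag
Hsd17b7 promoter, chr1:169969206-169969405, minus strand: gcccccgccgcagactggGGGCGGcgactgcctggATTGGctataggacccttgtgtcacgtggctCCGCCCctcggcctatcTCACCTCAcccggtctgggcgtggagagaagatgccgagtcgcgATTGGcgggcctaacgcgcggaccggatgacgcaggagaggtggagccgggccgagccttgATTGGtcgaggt
Ebp promoter, chrX:8193513-8193712, minus strand: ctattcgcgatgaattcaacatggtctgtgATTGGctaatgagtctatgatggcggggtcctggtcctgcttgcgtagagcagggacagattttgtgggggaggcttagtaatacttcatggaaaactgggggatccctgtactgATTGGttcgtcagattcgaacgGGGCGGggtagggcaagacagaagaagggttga
Sc5d promoter, chr9:42264301-42264500, minus strand: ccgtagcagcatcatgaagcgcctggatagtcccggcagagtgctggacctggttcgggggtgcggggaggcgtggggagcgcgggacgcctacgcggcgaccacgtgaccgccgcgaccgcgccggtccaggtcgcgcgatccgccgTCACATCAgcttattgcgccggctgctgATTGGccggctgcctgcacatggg
Dhcr7 promoter, chr7:143830014-143830213, plus strand: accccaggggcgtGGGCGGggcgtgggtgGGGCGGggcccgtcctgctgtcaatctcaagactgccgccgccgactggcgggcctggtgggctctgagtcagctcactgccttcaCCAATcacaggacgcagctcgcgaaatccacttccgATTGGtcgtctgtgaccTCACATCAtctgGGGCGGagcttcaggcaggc

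The RefSeq windows searched ran from 250 bases before to 50 bases after the start, on both strands, and all 9 genes had one. No match overlapped another in these 9 genes. All 9 genes held CCAAT, found in 41.1% of all genes with a promoter in the table, and all 9 held GGGCGG, found in 38.2%. Both motifs together stood in 14.5% of all genes. On the gene's own strand alone, CCAAT was in 4 of 9 genes and GGGCGG in 9 of 9. The longer sterol element core TCACNCCAC was in 0 of 9 genes and in 1.44% of all genes. TCACNTCA was chosen after the promoters had been read, so its count here cannot be weighed against its share of all genes. It was in 4 of 9 genes, Cyp51, Hsd17b7, Sc5d and Dhcr7, and in 3.99% of all genes. In Cyp51 it began 88 bases before the start, in Hsd17b7 117 bases and in Sc5d 52 bases. In Dhcr7 it began 32 bases before start site 3 and 130 bases before start site 2, and start site 1 held none. Dhcr7 held CCAAT at start site 3 alone. Member windows were 45.3% to 71.0% G and C, with a median of 64.0%, against a median of 52.7% over all promoters. Matches describe the letters of a window and are not binding sites measured in these cells.

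**Figure D2:**
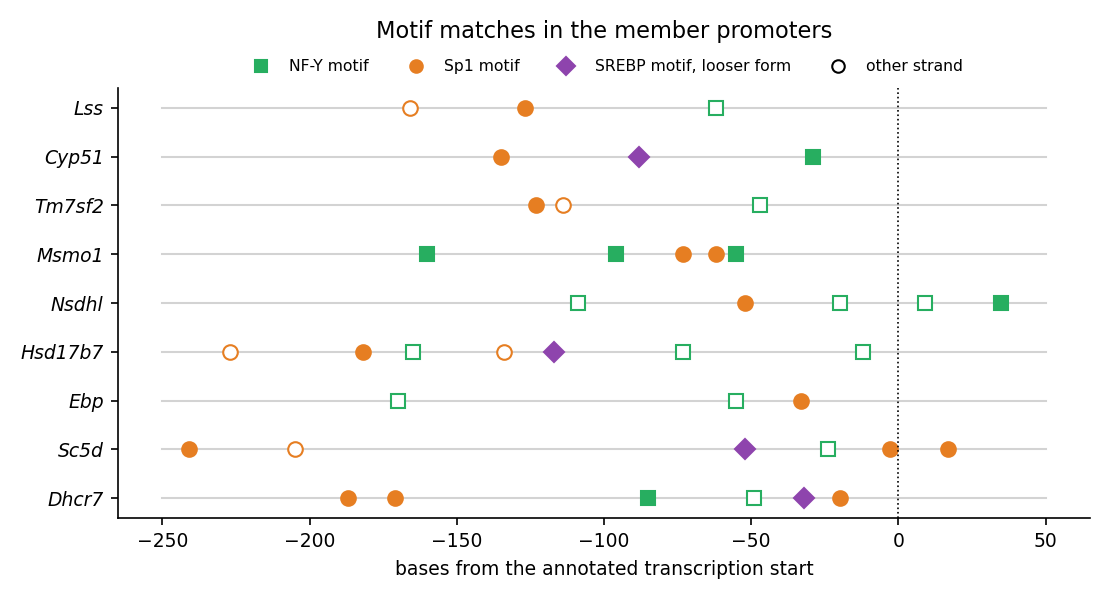
First base of each motif match relative to the annotated start (dotted line), 1 line per gene in pathway order; filled symbols lie on the gene's strand and open ones on the other strand. Dhcr7 is drawn at start site 3 alone, chosen because it holds all 3 motifs. The looser SREBP motif was chosen after the promoters had been read. At the start sites drawn, the SREBP motif in its looser form lies within 117 bases of the start in all 4 genes that hold it.

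Lss, lanosterol synthase, closes squalene epoxide into lanosterol and so opens the late pathway. It had 51.0, 55.1, 66.1, 53.7, 63.5 and 61.3 CPM in knockout clones 3G to 4L, against 90.4, 102, 101, 91.7, 89.3 and 92.4 CPM in wildtype clones 1A to 2F. The highest knockout clone, 3I, lay 23.2 CPM below the lowest wildtype clone, 2E. On the log2 scale it fell by 0.69 (SE 0.07, edgeR adjusted p = 0.000336, Benjamini-Hochberg). Lss ranked 8 among 11819 genes by p. Its printed promoter holds 1 CCAAT match, on the other strand, and no SREBP-type motif.

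Cyp51, the cytochrome P450 that removes the first methyl group of lanosterol, was the most abundant of the 9 in CPM. Knockout clones had 173, 166, 208, 189, 182 and 172 CPM, against 229, 281, 283, 217, 245 and 273 CPM in wildtype clones. Knockout 3I and wildtype 2D came closest to each other, 9.06 CPM apart. Cyp51 had a log2 fold change of -0.49 (SE 0.08, adjusted p = 0.00381, edgeR with Benjamini-Hochberg adjustment).

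Tm7sf2 encodes a reductase of the sterol ring that acts on the product of Cyp51, and it was the least abundant of the 9 in CPM. It had 9.10, 8.05, 5.48, 10.7, 12.98 and 11.2 CPM in knockout clones and 16.2, 16.1, 17.98, 13.4, 12.4 and 11.4 CPM in wildtype clones. Clone 4K lay above wildtype 2E and 2F, while the other 5 knockout clones lay below all wildtype clones. Its log2 fold change of -0.61 (SE 0.19, edgeR adjusted p = 0.0753, Benjamini-Hochberg) missed the threshold, with an approximate 95% interval from -0.98 to -0.23. Over the alternatives the adjusted p ran from 0.0239 to 0.276. DESeq2 called it at an adjusted p of 0.0239 and voom with title number as a correlated block at 0.0262, both with Benjamini-Hochberg adjustment. The block correlation was 1 value for all genes, -0.17, and a negative value lowers p between genotypes. The voom p may thus be too small for Tm7sf2, which differed by title number. For counts summed by title number Tm7sf2 did not pass (edgeR adjusted p = 0.276, Benjamini-Hochberg).

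Tm7sf2 differed more by title number than any other member. Knockout clones averaged 7.54 ± 1.86 CPM for title number 3 and 11.6 ± 1.21 CPM for 4, against 16.7 ± 1.07 CPM for wildtype title number 1 and 12.4 ± 0.987 CPM for 2 (SD, n = 3 each). It was the only member with an unadjusted p under 0.05 between title numbers of 1 genotype, in both genotypes, among 628 genes that had one in at least 1 genotype. Adjusted over all genes by edgeR with Benjamini-Hochberg adjustment, neither contrast passed. Lbr, the lamin B receptor, has the same reductase activity and was far more abundant. Lbr averaged 555 ± 30.3 CPM in knockout clones and 546 ± 43.2 CPM in wildtype clones (SD, n = 6 each), with a log2 fold change of 0.02 (SE 0.06, edgeR adjusted p = 0.842, Benjamini-Hochberg). The log2 ratio of Tm7sf2 to Lbr was lower by 0.66 in knockout clones, at an exact two-sided permutation p of 0.00866, and the groups overlapped.

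Msmo1, Nsdhl and Hsd17b7 together remove the remaining pair of methyl groups, as oxidase, dehydrogenase and ketone reductase. Msmo1 had 103, 97.4, 124, 110.1, 122 and 113 CPM in knockout clones, against 143, 159, 162, 134, 142 and 146 CPM in wildtype clones. Its groups were separated by 9.83 CPM, between knockout 3I and wildtype 2D. Msmo1 fell by 0.40 on the log2 scale (SE 0.07, edgeR adjusted p = 0.00459, Benjamini-Hochberg).

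Nsdhl, which lies on the X chromosome as Taz does, had 51.7, 51.0, 59.8, 60.9, 59.1 and 59.1 CPM in knockout clones, against 87.4, 87.9, 99.1, 84.0, 85.2 and 90.0 CPM in wildtype clones. All knockout clones lay within 9.82 CPM of each other and at least 23.2 CPM below any wildtype clone. Nsdhl fell by 0.64 on the log2 scale (SE 0.06, edgeR adjusted p = 0.000281, Benjamini-Hochberg), and ranked 4 among 11819 genes by p. The reference annotation places 68 genes between Nsdhl and Taz, and 21 of them were tested. Of these, Arhgap4 rose (log2 fold change 0.23, edgeR adjusted p = 0.0465, Benjamini-Hochberg), a call that it lost in 10 of 12 fits that left out 1 clone and without 3G and 2D together (adjusted p = 0.105). The median of the 21 was 0.00 on the log2 scale. Cetn2, the centrin gene that starts 146 bases from Nsdhl on the opposite strand, fell as well. Cetn2 averaged 59.5 ± 1.82 CPM in knockout clones and 67.8 ± 2.74 CPM in wildtype clones (SD, n = 6 each), with no overlap. Its log2 fold change of -0.19 (SE 0.03, edgeR adjusted p = 0.00754, Benjamini-Hochberg) was smaller in size than that of Nsdhl.

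Hsd17b7 had 21.2, 25.1, 25.6, 25.4, 20.3 and 25.7 CPM in knockout clones, against 29.5, 30.7, 30.7, 34.6, 26.5 and 29.3 CPM in wildtype clones. The groups lay close, with knockout 4L 0.791 CPM below wildtype 2E. Hsd17b7 had a log2 fold change of -0.34 (SE 0.08, edgeR adjusted p = 0.0248, Benjamini-Hochberg). This call was lost without clone 3G (adjusted p = 0.0548), without 1B (0.0504), and without 3G and 2D together (0.0675).

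Ebp, Sc5d and Dhcr7 finish the sterol: Ebp shifts a ring double bond, Sc5d adds one and Dhcr7 reduces the last one in the ring. Ebp had 51.1, 51.8, 48.9, 53.0, 45.2 and 53.6 CPM in knockout clones, against 57.0, 58.7, 60.3, 57.9, 57.0 and 55.4 CPM in wildtype clones. The nearest clones, knockout 4L and wildtype 2F, were 1.83 CPM apart, and clones varied little, with a coefficient of variation of 6.16% in knockout and 2.93% in wildtype. Ebp fell by 0.19 on the log2 scale (SE 0.04, edgeR adjusted p = 0.0226, Benjamini-Hochberg). This call was lost without clone 3I (adjusted p = 0.0531) and without 3G and 2D together (0.0525).

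Sc5d had 37.9, 36.01, 45.7, 38.0, 37.0 and 44.0 CPM in knockout clones, against 68.4, 57.7, 62.9, 76.2, 48.5 and 51.3 CPM in wildtype clones. Wildtype clones spread widely, with 2D, the clone with neutrophil transcripts, at the top and 2E at the bottom, 2.83 CPM above knockout 3I. The log2 fold change was -0.61 (SE 0.11, edgeR adjusted p = 0.00724, Benjamini-Hochberg), and the call held without 3G and 2D.

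Dhcr7, whose product makes cholesterol from its immediate precursor in one branch of the pathway, had 75.4, 74.4, 86.0, 82.2, 91.1 and 80.7 CPM in knockout clones. Wildtype clones had 110.4, 125, 132, 107, 122 and 119 CPM. The nearest clones, knockout 4K and wildtype 2D, were 15.9 CPM apart. The log2 fold change was -0.55 (SE 0.06, edgeR adjusted p = 0.00053, Benjamini-Hochberg). Nadsyn1, which starts 296 bases from Dhcr7 on the opposite strand, had a log2 fold change of 0.06 (edgeR adjusted p = 0.622, Benjamini-Hochberg).

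Some counts could hold or lack reads from stretches shared with neighbours. Counting ignored strand, ambiguous reads were left out, and the annotation behind the counts is not known. In GENCODE M21, Cyp51 shares 166 exonic bases with Akap9 on the opposite strand, and Akap9 had a log2 fold change of 0.15 (edgeR adjusted p = 0.0845, Benjamini-Hochberg). Tm7sf2 shares 532 exonic bases with Vps51 on the same strand, where ignoring strand plays no part. The log2 fold change of Vps51 was -0.04 (edgeR adjusted p = 0.744, Benjamini-Hochberg). Lss shares 381 with the antisense transcript 4930483K19Rik, which had at most 0.185 CPM in any clone.

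The fall was present in both knockout title numbers and against both wildtype title numbers. In a model with 4 groups of 3 clones, all 9 genes had a log2 fold change below 0 in each of the 4 pairs, as did 31.3% of all genes tested. Lss and Nsdhl were called lower in all 4 pairs, as were 0.0592% of genes. Lss changed by -0.77, -0.67, -0.72 and -0.61 on the log2 scale in title numbers 3 over 1, 3 over 2, 4 over 1 and 4 over 2. Nsdhl changed by -0.75, -0.67, -0.61 and -0.53 in the same pairs. Tm7sf2 changed by -1.15, -0.72, -0.53 and -0.09. These pairs share clones and are not independent.

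With 3 clones a group, fewer calls were made. Title number 3 over 1 called 5 members lower (0.575% of all genes), namely Lss, Tm7sf2, Msmo1, Nsdhl and Dhcr7. Title number 3 over 2 called 3 (0.296%), 4 over 1 called 3 (0.178%) and 4 over 2 called 2 (0.0931%). Between title numbers of 1 genotype, edgeR's quasi-likelihood test with Benjamini-Hochberg adjustment called 0 members and 0% of all genes. At an unadjusted p under 0.05 in at least 1 genotype it found 1 of 9 members, Tm7sf2, and 628 of 11819 genes. When counts were summed by title number, leaving 2 sums a genotype, 5 members were called lower, and Tm7sf2, Msmo1, Hsd17b7 and Ebp were not.

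**Figure D3:**
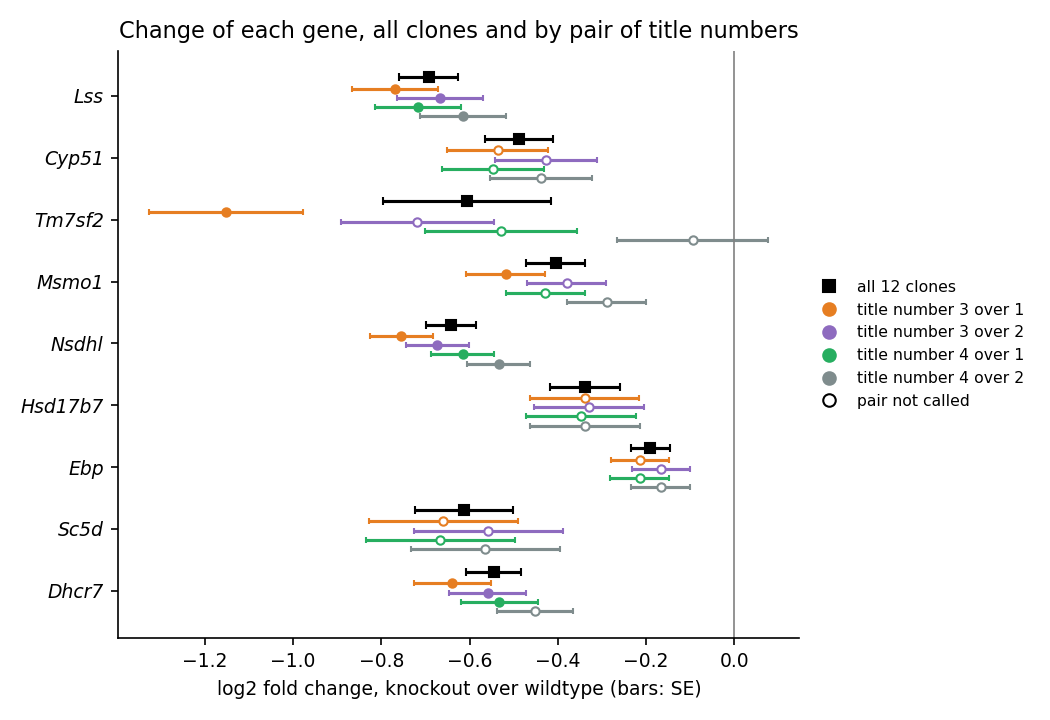
Log2 fold change of knockout over wildtype with its SE for all 12 clones (black squares) and for the 4 pairs of title numbers (circles, open where edgeR's adjusted p was 0.05 or more). Every point lies left of 0, and Tm7sf2 spreads furthest, with -1.15 for title number 3 over 1 and -0.09 for 4 over 2.

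Clone by clone, the median log2 difference of the 9 genes from the wildtype mean was -0.66 in 3G, -0.68 in 3H, -0.39 in 3I, -0.43 in 4J, -0.48 in 4K and -0.45 in 4L. In wildtype clones it ran from -0.08 in 2D to 0.14 in 1C, so the genotypes did not overlap. Clones 3G and 3H had the lowest medians, and 3I was the highest knockout clone for Lss, Cyp51, Msmo1 and Sc5d and the lowest for Tm7sf2.

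The members did not fall by the same amount. The log2 ratio of each gene to the next in the pathway was compared between genotypes, a measure that needs no scaling between clones. Over 8 neighbouring pairs, 4 ratios differed at an adjusted p under 0.05 (two-sided exact permutation of clones, Benjamini-Hochberg). Msmo1 to Nsdhl was higher in knockout clones by 0.24 (exact permutation p = 0.00216, adjusted p = 0.0173) and was the only ratio whose groups did not overlap. This p is the smallest that 6 clones against 6 can give. Nsdhl to Hsd17b7 was lower by 0.30 (adjusted exact permutation p = 0.026), Lss to Cyp51 lower by 0.21 (adjusted exact permutation p = 0.026) and Ebp to Sc5d higher by 0.41 (adjusted exact permutation p = 0.026). Nsdhl thus fell more than the genes on both sides of it, and Ebp fell less than Sc5d. Sc5d and Dhcr7 had a log2 ratio difference of -0.06, with an adjusted exact permutation p of 0.71. The number of ratios that passed fell to 1 without 4J or without 1A, and Msmo1 to Nsdhl passed with any 1 clone left out.

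**Figure D4:**
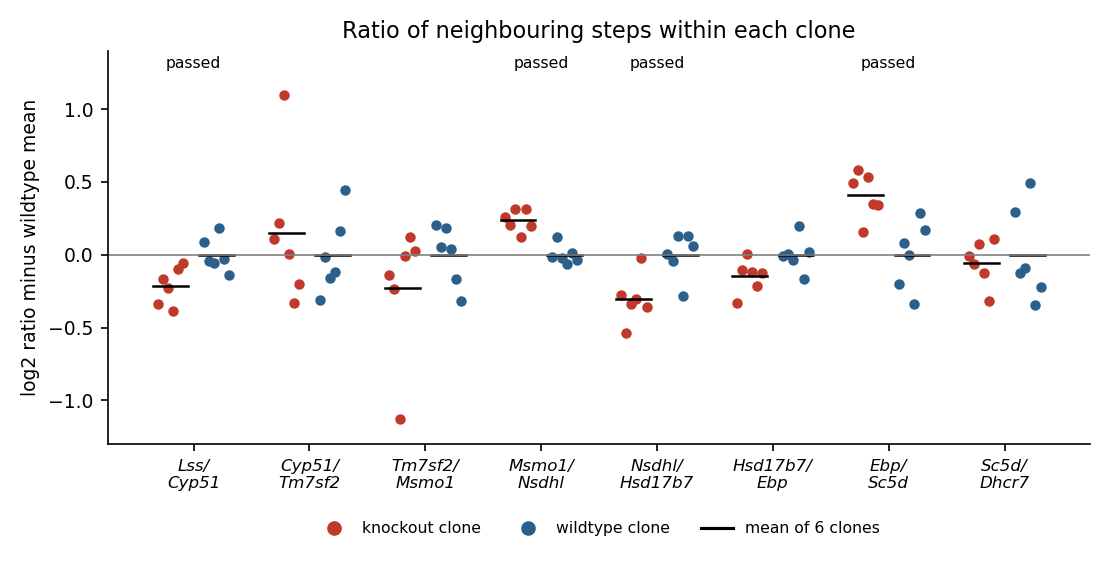
Log2 ratio of each gene to the next in pathway order within every clone, relative to the wildtype mean of that ratio, with knockout clones left of wildtype clones and lines at the means of 6 clones. For Msmo1/Nsdhl all knockout clones lie above all wildtype clones, and 4 of 8 ratios are marked as passed at an adjusted exact permutation p under 0.05.

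Within a genotype, some members varied together from clone to clone. After the mean of each genotype was removed, the 36 pairs of members had Pearson correlations of -0.30 to 0.91, with a median of 0.17 over 12 clones, and 25 were above 0. Members with all other genes tested had a median of -0.01. Lss, Cyp51, Msmo1, Nsdhl and Dhcr7, grouped after these values were seen, had correlations of 0.57 to 0.91 in all 10 of their pairs. They ran from 0.54 to 0.94 among knockout clones and from 0.65 to 0.89 among wildtype clones. The closest pair was Msmo1 and Dhcr7 (Pearson r = 0.91, Spearman rho = 0.86). With labels permuted within genotype 100000 times and Benjamini-Hochberg adjustment over 36 pairs, its permutation p was 0.00047 for r (adjusted 0.0169) and 0.00231 for rho (adjusted 0.0342). Without the 2 clones farthest from the median of Msmo1, r was 0.92. In the same family 6 of 36 pairs passed by Pearson and 7 by Spearman.

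The other 4 members, Tm7sf2, Hsd17b7, Ebp and Sc5d, had correlations of -0.30 to 0.30 with these 5, and 0 of those 20 pairs passed by Pearson or Spearman. Within a genotype, over 6 clones, those 20 correlations spread widely, from -0.72 to 0.63 among knockout clones and from -0.55 to 0.76 among wildtype clones. With 2 clones left out they reached 0.75, for Tm7sf2 with Msmo1 and for Lss with Ebp, so the line between the 5 and the other 4 depends on which clones are included. Hsd17b7 and Sc5d had r = 0.65 (permutation p = 0.0161, adjusted 0.0646) and rho = 0.80 (permutation p = 0.00625, adjusted 0.0375), and without 2 clones r was 0.55. Clones share depth and the scaling of their library, so such correlations describe these libraries.

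**Figure D5:**
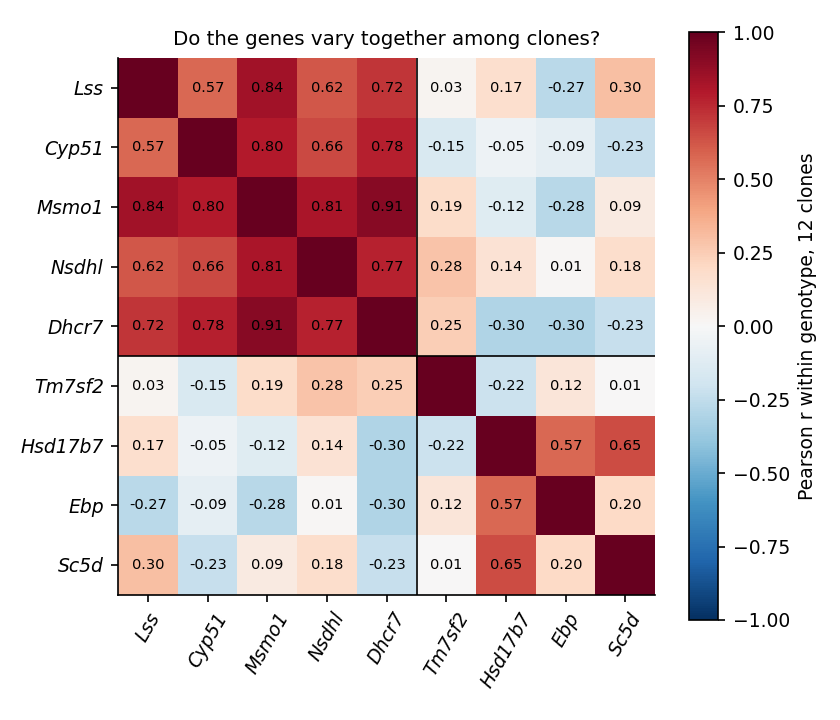
Pearson correlation of log2 CPM between members over 12 clones after removal of each genotype's mean, with lines that set off the 5 members that vary together. These 5 have r of 0.57 to 0.91 with each other, against -0.30 to 0.30 with Tm7sf2, Hsd17b7, Ebp and Sc5d.

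Among all tested genes, those whose clone-to-clone pattern was most like the mean of the members were Tepsin (Pearson r = 0.97 over 12 clones), Srrm2 (0.89), an ID with no name in the tables used (0.88) and Idi1 (0.84). Next came Col7a1, Dpm1, Rpusd2, Gm12932, Gm1976 and Atg16l1, with r of 0.84 to 0.81. Idi1, an isomerase of the mevalonate stretch, was the only 1 of these 10 that was called lower in knockout. These 10 are the highest values among all tested genes over 12 clones, and whether chance gives such values was not tested. With 1 clone left out, 3 to 8 of the 10 stayed among the top 10. Of the members themselves, Nsdhl followed the mean of the others most closely (r = 0.82) and Ebp least (r = -0.01).

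Levels can be compared between genes only per length. Per kilobase of the principal coding transcript, Msmo1 was highest, with 54.6 ± 5.07 CPM per kb in knockout clones and 72.2 ± 5.28 in wildtype clones (SD, n = 6 each). Cyp51 came next, with 46.2 ± 3.88 and 64.8 ± 7.22 CPM per kb in knockout and wildtype clones, and the ranges of these neighbours overlapped in both genotypes. Ebp, Dhcr7 and Nsdhl followed in knockout clones, at 29.0 ± 1.79, 29.0 ± 2.25 and 26.3 ± 2.01 CPM per kb, with overlapping ranges. In wildtype clones Dhcr7 (42.3 ± 3.30) and Nsdhl (41.0 ± 2.49) overlapped and both stood above Ebp (33.1 ± 0.969). Lss had 12.5 ± 1.30 CPM per kb in knockout clones and 20.2 ± 1.19 in wildtype clones. Sc5d had 8.31 ± 0.845 in knockout clones and 12.7 ± 2.19 in wildtype clones. Tm7sf2 (6.51 ± 1.79 in knockout, 9.91 ± 1.74 in wildtype) and Hsd17b7 (5.18 ± 0.530 in knockout, 6.55 ± 0.576 in wildtype) were lowest. Lss stood apart from its neighbours in both genotypes, Sc5d and Tm7sf2 overlapped in both, and Tm7sf2 and Hsd17b7 overlapped in knockout clones alone. The order depends on the length used: over all exons joined, Cyp51 came first and Msmo1 in position 4 in both genotypes.

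Genes that act beside these 9 were read from the same test. Erg28, a scaffold of the demethylation enzymes in yeast, had a log2 fold change of -0.11 and did not pass (edgeR adjusted p = 0.186, Benjamini-Hochberg), though it passed without clone 2D (adjusted p = 0.0381). Of 6 genes for electron donors and partners of these enzymes, Pgrmc2 (-0.20) and Cyb5b (-0.17) fell and 4 did not pass, among them Por, the P450 reductase, at 0.07. The call of Cyb5b was lost in 6 of 12 fits that left out 1 clone. Without 3G and 2D together, Cyb5b did not pass (edgeR adjusted p = 0.0885, Benjamini-Hochberg) and Cyb5r3, a cytochrome b5 reductase, did (log2 fold change -0.24, adjusted p = 0.0489). Upstream, 9 of 9 tested mevalonate pathway genes fell; the median of the 9 was -0.54 on the log2 scale. Mvd (-0.89) and Fdps (-0.95) had the lowest values, and Hmgcs1 was not analysed here. Of 8 genes of other isoprenoid branches 1 fell, Fntb at -0.19, and the median was 0.02. Fntb lost its call in 11 of 12 fits that left out 1 clone, and without 3G and 2D together (edgeR adjusted p = 0.1, Benjamini-Hochberg).

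Among 7 genes of SREBP control, Srebf2, which encodes SREBP2, fell (log2 fold change -0.23, edgeR adjusted p = 0.0209, Benjamini-Hochberg), as did Insig1 (-0.46, adjusted p = 0.0371), an anchor of the SREBP complex. With 1 clone left out, Srebf2 kept its call in all 12 fits and Insig1 lost it in 8. Of 7 tested genes of sterol uptake and transport, Stard4 (-0.61) and Scarb1 (-0.45) were among those that fell, and Vldlr, a lipoprotein receptor, rose by 2.97 on the log2 scale. The call of Scarb1 was lost in 7 of 12 fits that left out 1 clone, and those of Stard4 and Vldlr in 0. Without 3G and 2D together Scarb1 did not pass (edgeR adjusted p = 0.104, Benjamini-Hochberg). Vldlr averaged 73.2 ± 14.8 CPM in knockout clones and 9.34 ± 6.25 CPM in wildtype clones (SD, n = 6 each; edgeR adjusted p = 0.00125, Benjamini-Hochberg). Of 8 tested genes of sterol esters and oxysterols, Soat2, which esterifies cholesterol, rose by 1.10 on that scale and Tmem97 fell (-0.29). The call of Tmem97 was lost without 3G and 2D together (edgeR adjusted p = 0.0517, Benjamini-Hochberg) and for counts summed by title number (0.0717). Of 6 tested LXR targets and efflux genes 1 fell, Lpcat3 at -0.35. Of 9 fatty acid synthesis genes 4 fell, with a median of -0.34, and 1 of these, Scd1, did not pass without 3G and 2D (edgeR adjusted p = 0.0907, Benjamini-Hochberg).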

How the data were processed

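RNA was sequenced from 12 clones, 6 Taz knockout and 6 wildtype. The authors deposited raw read counts per Ensembl gene in 1 file per clone. The tools STAR, HTSeq and edgeR and the build mm9 are named per the submitters' processing notes; versions and annotation release are not given in the sources used here. Reads were counted without regard to strand, per the file names. Multiply aligned reads were 43.6% of records, and these, reads outside genes (3.55%) and ambiguous reads (1.59%) stayed out of library sizes.

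Counts were tested with edgeR 4.0.16 in R 4.3.3: TMM, filterByExpr by genotype, the quasi-likelihood F-test of knockout minus wildtype, and Benjamini-Hochberg adjustment over 11819 genes, with calls at an adjusted p under 0.05. The standard error was the absolute log2 fold change over the square root of F. The 4 title numbers were compared in 1 model of 4 groups. Log2 CPM of clones used a prior count of 2. Ratios between members were tested by exact permutation over clones, and correlations by 100000 permutations within genotype (scipy 1.17.1). The fits were tested on simulated counts. DESeq2 1.42.0 and limma 3.58.1 (voom) were alternatives, beside other scalings, no filter, robust dispersions, thinned counts, sums by title number and each clone left out. A count of 0 allows up to 3 counts, or 0.109 to 0.158 CPM, counting error only. No 2 clones agreed within sampling noise.

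Names, gene order and lengths came from GENCODE M21, a later build than mm9, so no coordinates of count features are given. Symbols were matched for 32860 of 37583 IDs. Promoters came from RefSeq. Named genes were the members, Taz, up to 4 genes per list with the smallest adjusted p, named biochemical partners, genes next to members, called genes between Nsdhl and Taz, and the 10 genes most like the members. Members and lists were chosen with earlier results of these data known. Some genes of these lists are not reported here.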

Additional observations from a re-analysis of the deposited data

Results flagged for a closer look

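Across 28 genes named here or in the marker lists, 56 groups of 6 clones were checked for a clone whose gap to the nearest other clone took up more of the group's range than Dixon's 95% limit, which chance alone exceeds in about 1 of 20 groups. No member of the late pathway had such a clone. The 5 values set apart were the following. In knockout clone 3G, Alb, the albumin gene of hepatocytes, had 122.5 CPM against at most 0.552 CPM in the other knockout clones. Apoe, a lipoprotein gene, had 33.39 CPM in 3G against 4.97 to 6.63 CPM in the other knockout clones. Vldlr had 45.59 CPM in 3G against 71.8 to 87.4 CPM in the other knockout clones. In wildtype clone 2D, Ltf, a neutrophil granule gene, had 137.6 CPM against at most 3.27 CPM in the other wildtype clones. In wildtype clone 2E, Mvd, an enzyme of the mevalonate stretch, had 34.66 CPM against 42.1 to 46.1 CPM in the other wildtype clones.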

How the results depend on the processing

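Of the 9 members, Lss, Cyp51, Nsdhl, Sc5d and Dhcr7 kept their lower call under all alternatives and with any 1 clone left out. The count of lower members was 8, ran from 7 to 8 with 1 clone left out and was 6 without clones 3G and 2D together. It was 9 with DESeq2 and with limma voom and title number as block. For counts summed by title number, a fit with fewer samples, it was 5 (edgeR with Benjamini-Hochberg adjustment, Msmo1 adjusted p 0.0663, Hsd17b7 0.0644, Ebp 0.0984). No result changed sign once called. Over all genes, 466 were lower and 472 higher. Without the filter these were 280 and 271, with DESeq2 830 and 800, with limma voom and title number as block 1125 and 1171 (block correlation -0.17), and for sums by title number 116 and 158. With 1 clone left out they ran from 272 to 535 lower and from 294 to 558 higher. In the pathway lists outside the late members 24 genes were called lower, and 14 for the sums. There 2 were higher, and 4 with the voom block. Of the genes between Nsdhl and Taz 2 were called, 1 without the filter, 4 with the voom block, 0 for the sums (edgeR), 1 without clones 3G and 2D, an alternative chosen after the data were seen, and 1 to 2 with 1 clone left out. Members lower in all 4 pairs of title numbers numbered 2, 1 without the filter and 0 to 2 with 1 clone left out. Neighbouring ratios that differed numbered 4, and 1 to 5 with 1 clone left out. Of the 10 genes most like the members 3 to 8 remained. CCAAT on the gene's strand alone was in 4 members. Causes of these moves were not tested beyond the construction named. No paired analysis was possible because the genotypes share no title number. Clones 3 to a title number and a lowest count of 129 limit what Tm7sf2 and the title number pairs can show.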
